A study of Mus musculus with 9 samples.

Results

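The 36 genes described here are the Rel-domain factors of NF-kB, the inhibitors that hold them, the kinases that release them, and a group of genes that they are known to switch on. They were taken by symbol from a given list of named genes, and that list was chosen with earlier results of these data known. All 36 were present in both deposited tables, among 37187 genes in the table of LSK cells and 45076 in the table of neutrophils. RNA had been sequenced from bone marrow of mice aged 4 to 12 weeks, of genotype Spop(+/+), called wild-type below, or Spop(D/D), labelled KO and called knockout below. LSK cells are the lineage-negative, Sca-1-positive, Kit-positive fraction that holds blood stem cells and multipotent progenitors, and the neutrophils were Ly6G+ cells. The LSK cells gave 2 libraries of each genotype, and the neutrophils gave 2 from the wild-type and 3 from the knockout. The sources used here give neither the driver and extent of the Spop deletion nor whether animals were pooled.

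NF-kB waits in the cytoplasm as dimers of Rel-domain proteins bound by inhibitors of the IkB family. Signals from Toll-like, interleukin-1 and tumour necrosis factor receptors run through adaptors such as MyD88 to the TAK1 kinase, encoded by Map3k7, and then to the IKK complex, which marks the inhibitors for destruction. The freed dimers enter the nucleus and raise transcription of inflammatory genes, and also of their own inhibitors and of the enzymes A20 and regnase-1, so the response ends itself. In the marrow the same pathway takes part in emergency production of myeloid cells and in the survival of neutrophils. Spop is the part of a cullin-3 ubiquitin ligase that picks its substrates, and the title of the series names MyD88 as its target in this setting.

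Before the levels, the promoters of the members were searched for the consensus kB motif, the DNA element that Rel-domain dimers bind. The windows ran from 250 bases before to 50 bases after each RefSeq start (GRCm38.p6), both strands were read, and overlapping matches were counted. Of the 28 members with a window, 12 (42.9%) held at least 1 match, against 1388 of 27025 genes with a window (5.14%). Many of these members are in the list because such elements are known at them, so that share is a description of the list. Windows of Nfkb1, Relb, Nfkbiz, Tab1, Ikbkb, Il10, Cd83 and Cd40 were not used here. The 160 bases before the start are shown for 4 members whose levels differed between genotypes in LSK cells, 3 that were lower in the knockout (Nfkbia, Nfkbie and Tnip3) and 1 that was higher (Csf1). Each reads 5′ to 3′ on the strand of the gene, with the kB match in capitals. They lie at chr12:55492648-55492807 (minus strand), chr17:45555540-45555699 (plus strand), chr6:65590238-65590397 (plus strand) and chr3:107760470-107760629 (minus strand). No exon of the GENCODE M21 annotation covers them, and that of Tnip3 lies inside a longer form of the gene.
Nfkbia: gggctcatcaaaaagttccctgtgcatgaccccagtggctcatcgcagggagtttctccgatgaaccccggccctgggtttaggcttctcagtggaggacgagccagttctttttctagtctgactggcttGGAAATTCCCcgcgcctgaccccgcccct
Nfkbie: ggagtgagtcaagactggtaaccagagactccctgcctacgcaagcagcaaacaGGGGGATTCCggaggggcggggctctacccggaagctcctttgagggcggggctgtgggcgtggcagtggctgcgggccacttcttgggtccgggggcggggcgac
Tnip3: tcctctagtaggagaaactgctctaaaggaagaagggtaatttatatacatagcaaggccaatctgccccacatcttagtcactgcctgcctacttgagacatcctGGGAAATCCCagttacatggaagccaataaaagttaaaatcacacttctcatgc
Csf1: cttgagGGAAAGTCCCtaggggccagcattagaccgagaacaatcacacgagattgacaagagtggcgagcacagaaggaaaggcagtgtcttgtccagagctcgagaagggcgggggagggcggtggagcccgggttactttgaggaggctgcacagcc
The match lies at bases -29 to -20 of Nfkbia, -106 to -97 of Nfkbie, -54 to -45 of Tnip3 and -154 to -145 of Csf1, counted from the start. A match is a run of letters and not a measured binding site.

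The libraries held 18827892 to 20264417 counted reads in LSK cells and 21012702 to 27434086 in neutrophils. Spop itself had 380 and 390 CPM (read counts scaled to library size with TMM factors) in the wild-type LSK libraries and 312 and 306 CPM in the knockout ones. A count over the whole gene does not show which exons are left. In neutrophils Spop had 135 and 194 CPM in the wild-type and 158, 178 and 210 CPM in the knockout, so there the count did not separate the genotypes. The LSK library labelled as the second knockout carries a neutrophil entry in its cell type field, but Ly6g had 0 reads in it and in the other 3 LSK libraries. The neutrophil libraries had 2837 to 19224 reads of Ly6g, with the fewest in the second wild-type library.

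In LSK cells members of 6 of the 7 roles differed between the genotypes, some higher and some lower in the knockout, and the Rel-domain factors did not pass the test. Nfkbia, Nfkbie, Nfkbiz, Tnfaip3, Tnip3, Birc3, Traf1 and Ier3 were lower, and Nfkbib, Chuk, Csf1, Gadd45b and Tnfaip2 were higher. That is 13 of the 32 members tested (40.6%), beside 42.2% of all 13008 genes tested, so the members were called about as often as any gene. The split was 5 higher (15.6%, beside 21.0% of all genes) and 8 lower (25.0%, beside 21.2% of all genes). The median log2 fold change was -0.14 over the tested members and -0.03 over all genes. Under upper-quartile scaling, which shifted the median of all genes to -0.12, 3 members were higher and 12 lower (beside 17.0% and 26.5% of all genes), and the share of higher genes among all called genes went from 49.8% to 39.0%. The libraries of the genotypes did not overlap for 22 of the 32 tested members (68.8%, beside 72.9% of all genes). There were 7 higher (21.9%, beside 34.6% of all genes) and 15 lower (46.9%, beside 38.3% of all genes). When all 9 libraries shared one estimate of the spread, no member and no gene passed. Because these were bulk samples, fewer cells of a type and less RNA per cell cannot be told apart.

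Marker genes of several cell types also differed between the genotypes in these libraries. All 10 markers of granulocyte-monocyte progenitors rose, and their summed level was 1802 to 2370 CPM in the wild-type and 16938 to 20100 CPM in the knockout LSK libraries. Of the 12 LSK markers 10 fell and 2 rose, with sums of 5234 to 5520 CPM and 3437 to 3657 CPM. Of 10 tested B cell markers 9 fell, with sums of 232 to 248 CPM and 67.9 to 73.3 CPM, and 4 of 7 tested T and NK cell markers fell. Of 12 erythroid markers 8 fell, with sums of 1122 to 1137 CPM and 418 to 544 CPM, and of 10 tested dendritic cell markers 4 fell and 1 rose. Of 12 monocyte and macrophage markers 6 rose and 5 fell, with sums of 167 to 211 CPM and 723 to 962 CPM. Of 9 tested immediate-early genes 5 fell and 1 rose, with sums of 467 to 499 CPM and 342 to 395 CPM. Of 9 tested neutrophil markers 3 rose and 2 fell, and Ly6g and Stfa2l1 had 0 reads in each LSK library. The part of these shifts in the member results was not tested.

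**Figure D1:**
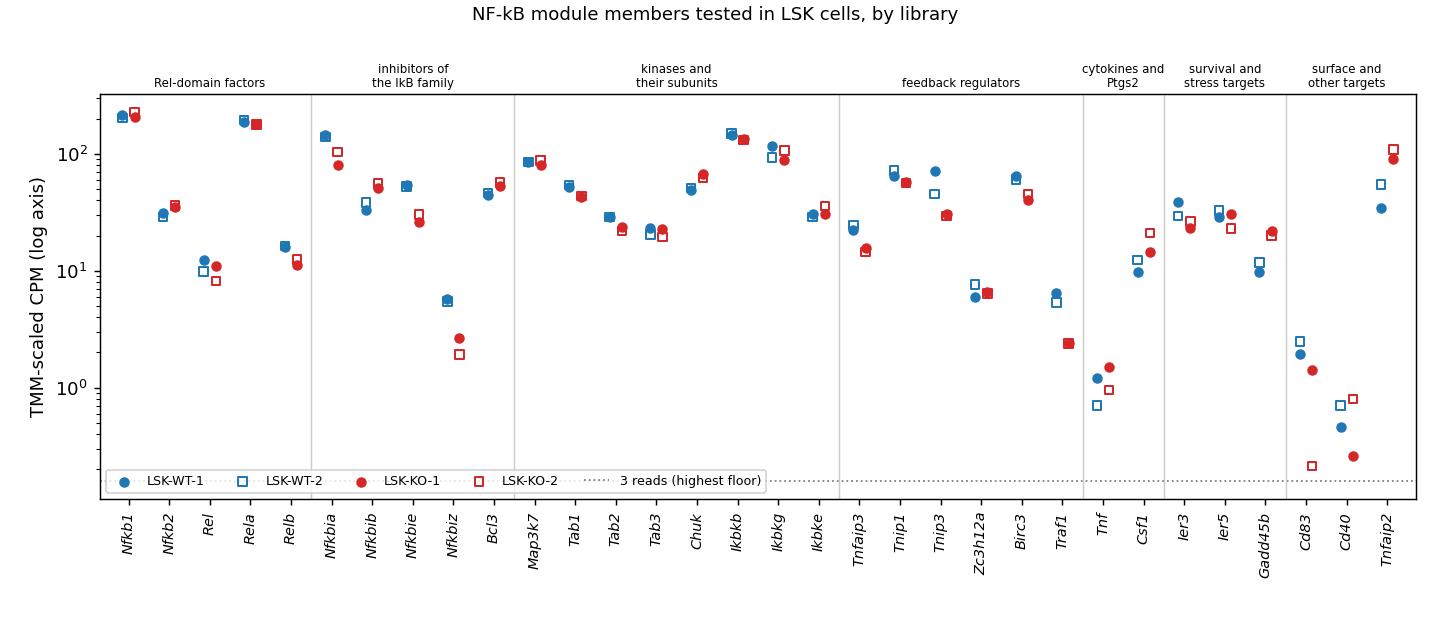
Level of each tested member in the 4 LSK libraries, in TMM-scaled CPM on a log axis; blue marks are wild-type and red marks knockout, filled for the first and open for the second library, and the dotted line is the highest level worth 3 reads. The inhibitors Nfkbia, Nfkbie and Nfkbiz sit lower in both knockout libraries, while Gadd45b and Tnfaip2 sit higher.

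The Rel-domain factors are the DNA-binding subunits of NF-kB. None of the 5 passed the test in LSK cells. Rela, the activating subunit of the classical dimer, had 187 and 194 CPM in the wild-type and 180 and 179 CPM in the knockout libraries, a log2 fold change of -0.09 (95% confidence interval -0.29 to 0.11). Nfkb1, which encodes its p50 partner, was at 215 and 204 CPM against 208 and 228 CPM, and the genotypes overlapped. Relb, the activating subunit of the alternative pathway, was at 16.0 and 16.4 CPM against 11.1 and 12.5 CPM. Its log2 fold change was -0.46 (SE 0.196, edgeR quasi-likelihood test, adjusted p = 0.0783), with both knockout libraries below both wild-type ones. Nfkb2, whose p52 product pairs with RelB, had 31.4 and 28.9 CPM against 35.0 and 36.1 CPM (adjusted p = 0.195, edgeR). Rel, which encodes c-Rel, overlapped between genotypes, at 12.3 and 9.90 CPM against 10.9 and 8.19 CPM. Per length, Rela stood highest of the factors in wild-type LSK cells, at a mean of 62.0 RPKM (CPM per kilobase of exon), while Nfkb1 was at 17.4 and Rel at 1.49 RPKM.

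The IkB family moved in both directions, with 3 of its 5 members lower, 1 higher and 1 not called. Nfkbia encodes IkB-alpha, the main inhibitor and itself a prompt NF-kB target (chr12:55489410-55492647). It had 145 and 139 CPM in the wild-type and 80.6 and 104 CPM in the knockout libraries. Both knockout libraries were below both wild-type ones, a fall of 1.54-fold (log2 fold change -0.62, SE 0.124, edgeR quasi-likelihood test, adjusted p = 0.00171). Nfkbie, which encodes IkB-epsilon (chr17:45555703-45563169), had 53.7 and 52.8 CPM in the wild-type and 26.2 and 30.4 CPM in the knockout. Its log2 fold change of -0.91 (SE 0.137, adjusted p = 1.99e-04, edgeR) was the one with the smallest p among the tested members. Nfkbiz, which encodes the nuclear co-activator IkB-zeta (chr16:55811375-55838899), was a low transcript at 5.78 and 5.44 CPM that fell to 2.66 and 1.92 CPM (log2 fold change -1.29, SE 0.350, adjusted p = 0.0102, edgeR). Without the first wild-type library its adjusted p was 0.0696.

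Nfkbib encodes IkB-beta, an inhibitor that is not known for the rapid NF-kB feedback of Nfkbia (chr7:28758251-28767512). It rose from 33.1 and 38.4 CPM to 51.5 and 56.0 CPM (log2 fold change 0.59, SE 0.135, edgeR, adjusted p = 0.0038), and was at 0.0575 without the first wild-type library. Reads of Nfkbib are uncertain, as 16.4% of its exon bases lie opposite exons of other genes and the libraries keep no strand. Bcl3, a nuclear IkB protein that works with p50 and p52 homodimers, was at 44.6 and 46.3 CPM against 53.0 and 57.0 CPM. The genotypes did not overlap for Bcl3, and it did not pass (log2 fold change 0.28, adjusted p = 0.0905, edgeR). The inhibitors thus split by gene, and Nfkbia remained the highest of them per length in both genotypes, at means of 88.3 and 57.4 RPKM.

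Of the 8 kinases and kinase subunits, only Chuk was called. Chuk encodes IKK-alpha, the kinase of the alternative pathway (chr19:44073335-44107480). It rose from 49.0 and 51.1 CPM to 68.0 and 62.1 CPM, 1.30-fold (log2 fold change 0.38, SE 0.120, edgeR, adjusted p = 0.0234). That call did not hold under upper-quartile scaling (adjusted p = 0.0737) or without either wild-type library (adjusted p = 0.131 and 0.0826 in edgeR). Ikbkb, the catalytic subunit of the classical IKK complex, had 144 and 149 CPM in the wild-type and 134 and 132 CPM in the knockout (log2 fold change -0.14, interval -0.35 to 0.07). Ikbkg, which encodes the scaffold NEMO, overlapped between genotypes at 116 and 93.2 CPM against 89.0 and 107 CPM. Ikbke, a kinase of the IKK-related branch, was at 30.8 and 28.8 CPM against 30.8 and 35.8 CPM.

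Map3k7, which encodes TAK1, had nearly the same level in each LSK library, at 85.2 and 85.2 CPM against 80.5 and 87.7 CPM (log2 fold change -0.02, interval -0.25 to 0.22). Its partners Tab1 and Tab2 lay lower in both knockout libraries without passing, Tab1 at 52.2 and 54.0 CPM against 42.9 and 43.6 CPM (edgeR, adjusted p = 0.0697) and Tab2 at 29.0 and 29.0 CPM against 23.6 and 21.8 CPM (edgeR, adjusted p = 0.0884). Tab3 overlapped, at 23.3 and 20.4 CPM against 22.9 and 19.5 CPM. Both Tab1 and Tab2 were among the members that passed under upper-quartile scaling, together with Relb and Tnip1.

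Among the 6 feedback regulators 4 were lower in the knockout and none was higher. Tnfaip3 encodes A20, the ubiquitin-editing enzyme that shuts off the IKK complex (chr10:19000910-19015657). It fell from 22.5 and 24.5 CPM to 15.7 and 14.5 CPM, 1.55-fold (log2 fold change -0.64, SE 0.177, edgeR, adjusted p = 0.0116). Without the second wild-type library the adjusted p was 0.088. Tnip3, one of the A20-binding proteins (chr6:65525313-65634040), had 71.4 and 45.5 CPM in the wild-type libraries, which lay apart from each other, and 30.8 and 29.5 CPM in the knockout. Both knockout libraries were below both wild-type ones (log2 fold change -0.95, SE 0.195, edgeR, adjusted p = 0.00327). Tnip1, the related A20 partner, was at 65.1 and 71.8 CPM against 58.0 and 56.3 CPM and did not pass (edgeR, adjusted p = 0.093).

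Birc3 encodes cIAP2, a ubiquitin ligase of tumour necrosis factor receptor complexes (chr9:7848699-7873186). It fell from 65.1 and 60.6 CPM to 40.2 and 45.2 CPM, 1.47-fold (log2 fold change -0.56, SE 0.126, edgeR, adjusted p = 0.00352). Traf1, an adaptor that binds the cIAP proteins (chr2:34941750-34961772), fell from 6.44 and 5.35 CPM to 2.40 and 2.39 CPM (log2 fold change -1.30, SE 0.336, edgeR, adjusted p = 0.00783). For Traf1 the adjusted p was 0.08 without the first wild-type library. Zc3h12a, which encodes the RNase regnase-1, overlapped between genotypes at 5.99 and 7.65 CPM against 6.57 and 6.38 CPM.

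**Figure D2:**
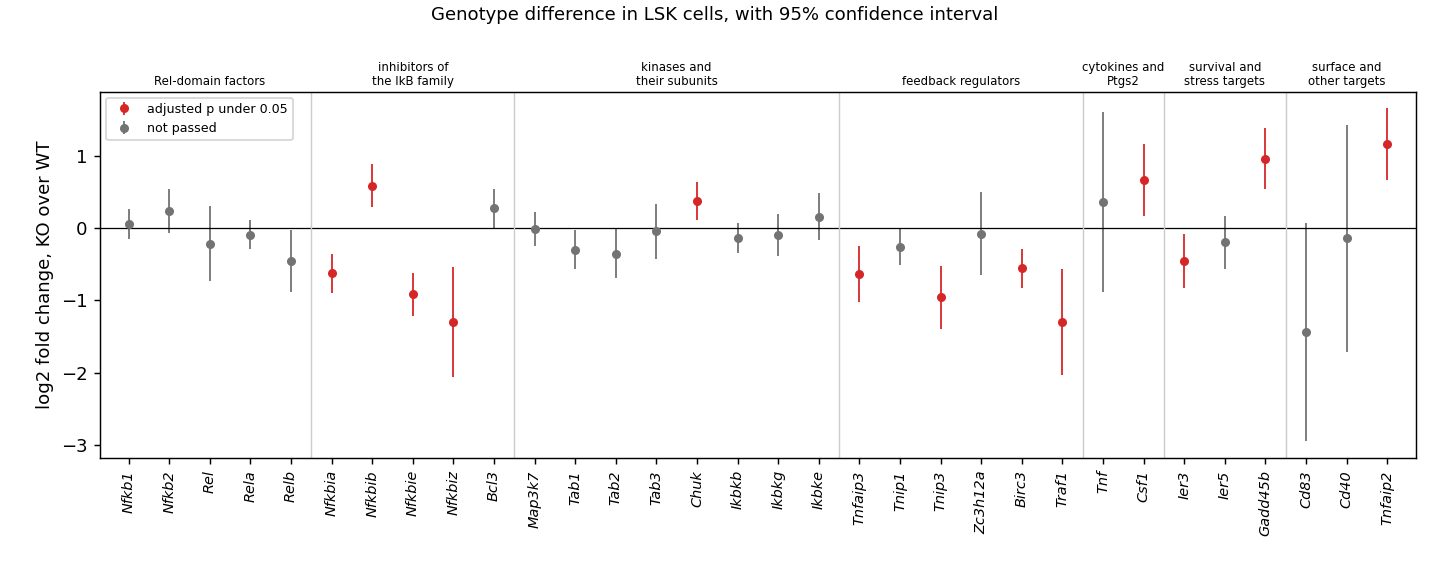
Log2 fold change of knockout over wild-type in LSK cells for each tested member, with the 95% confidence interval, grouped by role. Intervals of the called inhibitors and feedback genes lie below 0 except that of Nfkbib, and the widest intervals belong to low transcripts such as Cd83, Cd40 and Tnf.

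The cytokine genes of the list were scarce in LSK cells. Tnf, which encodes tumour necrosis factor, had 1.22 and 0.704 CPM in wild-type cells and 1.51 and 0.958 CPM in the knockout, and the genotypes overlapped. Il6, Il10 and Ptgs2, which encode interleukin-6, interleukin-10 and the inducible cyclooxygenase, did not pass the expression filter. Il6 had 1 and 5 reads in the wild-type and 10 and 17 reads in the knockout libraries. Il10 had 0 and 1 reads against 10 and 3, and Ptgs2 had 0 and 2 against 7 and 7. Reads of these 3 genes were more numerous in each knockout library than in either wild-type one, yet without the filter none passed (edgeR, adjusted p = 0.0745 for Il6, 0.106 for Il10 and 0.158 for Ptgs2). Csf1, which encodes macrophage colony-stimulating factor (chr3:107741048-107760469), had 9.84 and 12.4 CPM in the wild-type and 14.4 and 21.0 CPM in the knockout. It rose 1.59-fold (log2 fold change 0.67, SE 0.230, edgeR, adjusted p = 0.0339), and the call was lost under upper-quartile scaling (0.0563) and without the first wild-type (0.213), the second wild-type (0.0537) or the second knockout library (0.255).

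The survival and stress genes split. Gadd45b, a stress-response gene that restrains JNK signalling (chr10:80930073-80932204), rose from 9.79 and 11.8 CPM to 21.8 and 20.1 CPM, 1.94-fold (log2 fold change 0.96, SE 0.195, edgeR, adjusted p = 0.00175). Ier3, an immediate-early gene linked to cell survival (chr17:35821684-35822923), went the other way, from 38.8 and 29.4 CPM to 23.5 and 26.3 CPM (log2 fold change -0.45, SE 0.170, edgeR, adjusted p = 0.0475). The Ier3 call was lost with RLE size factors (0.0534), in DESeq2 (0.0936), in voom (0.0592), and without the first wild-type (0.434) or first knockout library (0.159). Ier5, an immediate-early gene, overlapped at 29.1 and 32.7 CPM against 30.8 and 23.1 CPM. Bcl2a1d, of the Bcl2a1 survival family, was below the filter with 0 and 2 reads against 10 and 1, and near-identical copies make its reads uncertain.

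Of the surface and remaining targets, Tnfaip2 had the largest rise among the 32 tested members. Tnfaip2, which encodes a protein linked to membrane protrusions and induced by tumour necrosis factor (chr12:111442469-111455018), had 34.3 and 54.6 CPM in the wild-type and 90.4 and 109 CPM in the knockout libraries. It rose 2.24-fold (log2 fold change 1.16, SE 0.212, edgeR, adjusted p = 0.00343), and was at 0.0827 without the first knockout library. Cd83, a surface marker of activated antigen-presenting cells, was at 1.93 and 2.49 CPM against 1.41 and 0.213 CPM and did not pass (edgeR, adjusted p = 0.115). It passed as lower in voom (adjusted p = 0.0367), and in edgeR without the filter (0.0439) and with the replicate block (0.0347). It did not pass with the other scalings or in DESeq2. Cd40, a receptor of the tumour necrosis factor family, overlapped at 0.456 and 0.704 CPM against 0.261 and 0.798 CPM. Nfkbia, Nfkbie, Tnip3, Birc3 and Gadd45b were the 5 members whose calls held under each other scaling, tool, filter, replicate block and left-out library, the shared spread of all 9 libraries being the exception.

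Other genes of the pathway gave a mixed picture in LSK cells. Of 25 tested receptors and adaptors 8 rose and 5 fell, and of 17 regulators 1 rose and 4 fell. Of 19 tested further targets 1 rose and 7 fell. Beside these counts, 21.0% of all 13008 genes tested rose and 21.2% fell. The 4 receptors and adaptors with the smallest p were Myd88, which rose from a mean of 77.9 to 161 CPM (log2 fold change 1.05), Card9, an adaptor of myeloid cells, which rose from 3.31 to 15.7 CPM, Bcl10, its partner, which fell from 126 to 87.6 CPM, and Birc2, which encodes cIAP1 and fell from 99.7 to 68.6 CPM. Among regulators, Tbkbp1 fell from 19.2 to 8.90 CPM, Pdlim2 from 40.0 to 24.5 CPM and Zfp36 from 56.1 to 38.3 CPM, while Tank, a binder of TRAF proteins, rose from 51.5 to 77 CPM. Among further targets, the lymphotoxin gene Ltb fell from 127 to 34.9 CPM, the chemokines Ccl4 and Ccl3 from 28.0 to 5.63 CPM and from 19.4 to 3.63 CPM, and the autophagy receptor Sqstm1 from 390 to 262 CPM. Exon bases opposite exons of other genes were 17.3% of Sqstm1, 11.3% of Myd88, 3.79% of Card9 and 3.60% of Zfp36. Reads of these genes are therefore uncertain.

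In neutrophils no member passed the test, and neither did any other gene (0 of 33 members tested, beside 0% of all 12836 genes, edgeR). At an unadjusted p under 0.05 there were 1 member higher and 2 lower, beside 615 genes higher and 1172 lower. DESeq2 called 3 members, all lower, beside 4.91% of all genes lower and 1.82% higher. The genotypes did not overlap for 12 of the 33 members (36.4%, beside 34.5% of all genes). There were 9 with all knockout libraries higher (27.3%, beside 17.0%), namely Nfkbia, Nfkbiz, Bcl3, Tab3, Chuk, Ikbkg, Birc3, Tnf and Ier3, and 3 with all of them lower (9.09%, beside 17.5%), namely Ikbkb, Cd83 and Cd40. In counts simulated for this comparison edgeR recovered 7% of 4-fold changes.

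The neutrophil libraries also stood apart from each other in cell markers. The second wild-type library had a summed level of B cell markers of 2056 CPM, while the first wild-type library had 81.1 CPM and the knockout libraries 3.56 to 10.9 CPM. Dendritic cell markers reached 19450 CPM there, while they summed to 510 CPM in the first wild-type and 33.3 to 153 CPM in the knockout libraries. Neutrophil markers were at 36853 CPM there and at 205276 CPM in the other wild-type library. The third knockout library had the highest sums of neutrophil markers (643187 CPM) and of erythroid markers (18677 CPM). Immediate-early genes summed to 1386 and 1423 CPM in the wild-type and to 1656 to 2087 CPM in the knockout libraries. None of the 11 tested immediate-early genes passed. The part of these shifts in the member values was not tested.

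Cd83 and Cd40 show how far the second wild-type library carried a value. Cd83 had 2.42 and 164 CPM in the wild-type and 0.291, 0.435 and 0.551 CPM in the knockout neutrophils, and Cd40 at 3.91 and 49.4 CPM against 0.328, 2.92 and 0.551 CPM. Traf1 followed the same library, at 1.67 and 74.9 CPM against 4.19, 25.0 and 4.10 CPM. Relb was at 15.6 and 65.1 CPM against 11.6, 26.2 and 9.66 CPM. In each of these 4 genes the second wild-type library was the highest of the 5. Reads of Bcl2a1d were 1 and 575 in the wild-type and 1, 7 and 8 in the knockout libraries, and its copies Bcl2a1a and Bcl2a1b were also highest in that library, at 359 and 426 reads.

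The inhibitors Nfkbia, Nfkbiz and Bcl3 were higher in each knockout neutrophil library than in either wild-type one, without passing. Nfkbia had 393 and 381 CPM in the wild-type and 461, 733 and 911 CPM in the knockout (log2 fold change 0.86, interval -0.34 to 2.06, edgeR, adjusted p = 0.494). Nfkbiz was at 5.87 and 21.5 CPM against 28.3, 30.5 and 53.3 CPM (log2 fold change 1.45, edgeR, adjusted p = 0.375). Bcl3 was at 67.4 and 40.3 CPM against 172, 163 and 73.6 CPM (log2 fold change 1.34, edgeR, unadjusted p = 0.0375 and adjusted p = 0.329), with the third knockout library close to the first wild-type one. Among the others, Nfkbib overlapped, at 42.6 and 46.4 CPM against 38.1, 61.2 and 36.2 CPM, and so did Nfkbie, at 25.4 and 68.7 CPM against 14.3, 30.3 and 17.2 CPM.

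Of the survival and feedback genes, Ier3 had 28.6 and 8.86 CPM in the wild-type and 42.6, 48.4 and 40.7 CPM in the knockout neutrophils (log2 fold change 1.23, edgeR, adjusted p = 0.375). Birc3 was at 48.5 and 65.2 CPM against 81.9, 103 and 74.6 CPM (log2 fold change 0.60, edgeR, adjusted p = 0.509). Tnfaip3 overlapped at 6.69 and 31.9 CPM against 9.18, 17.7 and 4.59 CPM. Both Ier3 and Birc3 thus separated by genotype, and Tnfaip3 did not. Tnf was at 13.3 and 5.47 CPM against 13.4, 26.5 and 16.0 CPM, so the nearest libraries of the genotypes were 13.3 and 13.4 CPM. Il6 and Ptgs2 stayed below the filter in neutrophils too, with at most 11 and 5 reads in a library.

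In neutrophils none of the 5 factors separated the genotypes, and 4 of the 8 kinases and subunits did, 3 higher and 1 lower in the knockout. Rela had 146 and 112 CPM in the wild-type and 126, 152 and 123 CPM in the knockout (log2 fold change 0.05, interval -0.84 to 0.93). Nfkb1 was at 61.4 and 110 CPM against 57.2, 71.2 and 26.3 CPM. Both overlapped. Ikbkb had 56.3 and 94.8 CPM against 48.4, 44.8 and 39.1 CPM, lower in each knockout library, and Chuk had 8.08 and 25.9 CPM against 30.4, 27.8 and 34.0 CPM, higher in each. Csf1 was at 3.88 and 10.7 CPM against 14.3, 55.3 and 9.18 CPM and Tnfaip2 at 182 and 53.9 CPM against 207, 354 and 156 CPM, both overlapping. With the replicate block, Csf1 (higher, adjusted p = 0.0466, edgeR) and Cd40 (lower, adjusted p = 0.00382, edgeR) passed, beside 0.670% of all genes higher and 1.93% lower. The third knockout library has no wild-type partner of its number, so in that fit it did not bear on the difference. The sources do not say whether the numbers mark pairs.

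**Figure D3:**
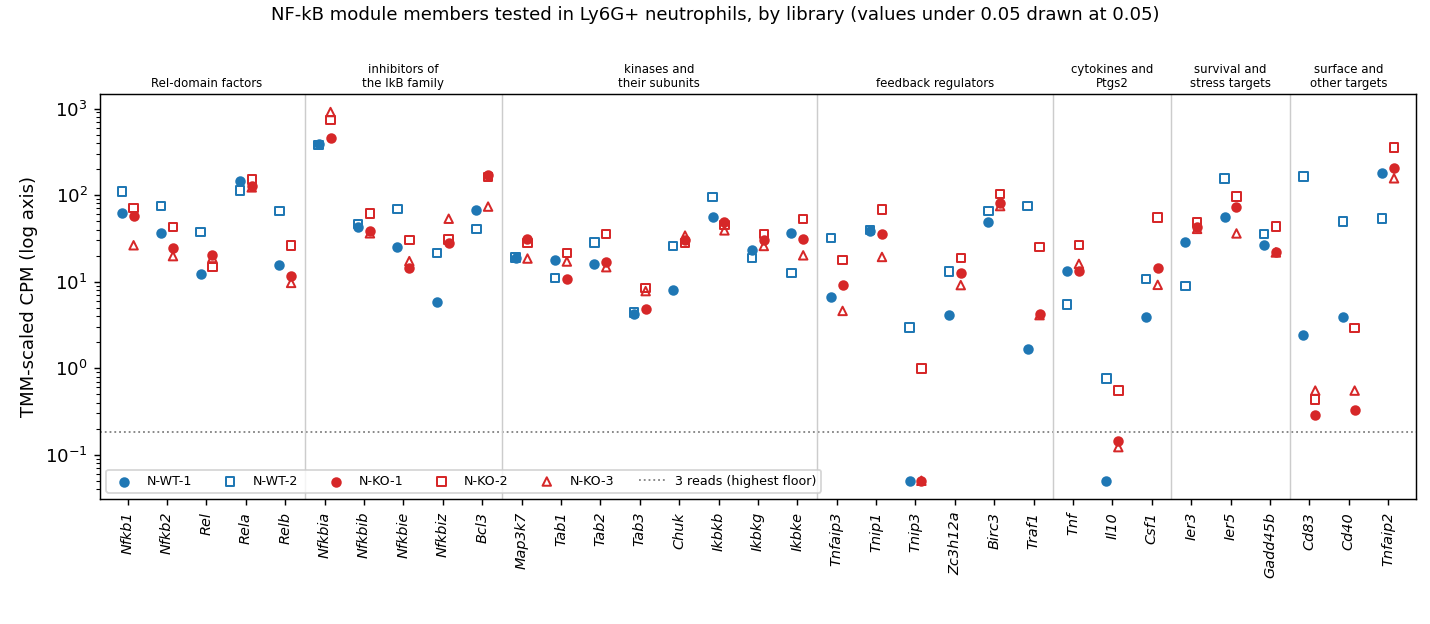
Level of each tested member in the 5 neutrophil libraries, in TMM-scaled CPM on a log axis; blue marks are wild-type and red marks knockout. For Cd83, Cd40 and Traf1 the second wild-type library stands far above the first, and for Nfkbia, Nfkbiz and Bcl3 all knockout libraries lie above the wild-type ones.

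Set against LSK cells, most members had a higher scaled level in neutrophils, which is a relative level and not mRNA per cell. It rests on TMM factors of 1.56 to 1.79 in the LSK and 0.435 to 1.08 in the neutrophil libraries. In the fit of all 9 libraries 22 of 35 tested members were higher in neutrophils (62.9%, beside 25.6% of all 13450 genes) and 2 were lower (5.71%, beside 30.3%), 24 in all (68.6%, beside 55.9%). The median log2 fold change was 1.40 over the members and -0.15 over all genes. For 16 members each neutrophil library lay above each LSK library (45.7%, beside 19.3% of all genes). The tables of the populations had been counted apart, so population and counting run cannot be told apart, and the CPM and RPKM values that follow come from the joint scaling and are not those given above. In the wild-type libraries alone 14 members were higher (beside 13.9% of all genes) and 1 was lower (beside 11.6%). Of 12 immediate-early genes 10 were also higher in neutrophils in the fit of all 9 libraries. Their sums were 208 to 306 CPM in the LSK and 2180 to 3106 CPM in the neutrophil libraries. The part of that shift in the member values was not tested.

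All 5 of the IkB family were higher in neutrophils, with Nfkbia at 48.9 to 88.8 CPM in the LSK and 599 to 1355 CPM in the neutrophil libraries (log2 fold change 3.54, SE 0.270, edgeR, adjusted p = 9.14e-05). Nfkbiz ran from 1.19 to 3.53 CPM in LSK cells and from 9.62 to 79.3 CPM in neutrophils (log2 fold change 4.01, SE 0.444, edgeR, adjusted p = 3.37e-04). The populations did not overlap in either gene. Bcl3 (2.15), Nfkbib (1.40) and Nfkbie (1.04) had smaller log2 fold changes, and Nfkbie overlapped and was lost without the second wild-type neutrophil library (edgeR, adjusted p = 0.0638) and without any single LSK library (0.0878 to 0.120). Per length Nfkbia was the highest member in neutrophils of both genotypes, at means of 386 and 673 RPKM.

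Of the Rel-domain factors 4 of 5 were higher in neutrophils, with log2 fold changes of 2.40 for Rel, 2.23 for Relb, 1.66 for Nfkb2 and 0.88 for Rela. Nfkb1 was at 125 to 142 CPM in LSK cells and 39.2 to 173 CPM in neutrophils, and did not pass (log2 fold change -0.31, interval -1.06 to 0.43). Among the 8 kinases, Tab2 (1.16) and Ikbke (1.27) were higher and Ikbkg (-0.63) was lower. Tab2 and Ikbke were lost without any single LSK library (edgeR, adjusted p = 0.0686 to 0.0738 and 0.0842 to 0.108), and Ikbkg without the second wild-type neutrophil library (0.0626) among others. Most kinase transcripts thus did not pass between the populations, while most factors and all inhibitors did.

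Among feedback genes, Birc3 (log2 fold change 1.80), Zc3h12a (2.06) and Traf1 (3.81) were higher in neutrophils, and Tnip3 was lower. Tnip3 ran from 18.4 to 43.6 CPM in LSK cells and from 0 to 4.61 CPM in neutrophils, where 3 of the 5 libraries had no read (log2 fold change -4.52, SE 1.38, edgeR, adjusted p = 0.0239). The populations did not overlap for Tnip3, but its call was lost without the filter (edgeR, adjusted p = 0.0595), with wild-type libraries only (0.173) and without any single LSK library (0.0534 to 0.0672). Tnf had the largest rise among the tested members, from 0.431 to 0.917 CPM in LSK cells to 8.60 to 41.7 CPM in neutrophils (log2 fold change 4.97, SE 0.473, edgeR, adjusted p = 1.93e-04). All 4 survival and stress genes were called higher, among them Ier5 (2.93) and Gadd45b (2.36), and so were Tnfaip2 (2.71), Cd40 (4.73) and Cd83 (3.49).

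Some of these calls rested on the second wild-type neutrophil library, the one with the dendritic and B cell markers. Without it Cd83 had a log2 fold change of 1.04 (edgeR, adjusted p = 0.194), Bcl2a1d of 1.08 (adjusted p = 0.549) and Traf1 of 1.64 (adjusted p = 0.0716). The calls of 13 members held under each alternative: Nfkb2, Rel, Relb, Nfkbia, Nfkbib, Nfkbiz, Bcl3, Birc3, Tnf, Ier5, Gadd45b, Cd40 and Tnfaip2. The other 11 were each lost under at least 1. Rela and Zc3h12a were lost with wild-type libraries only (edgeR, adjusted p = 0.0545 and 0.0668), where Ier3 was at 0.443, and Traf1, Bcl2a1d and Cd83 were also lost without any single LSK library.

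**Figure D4:**
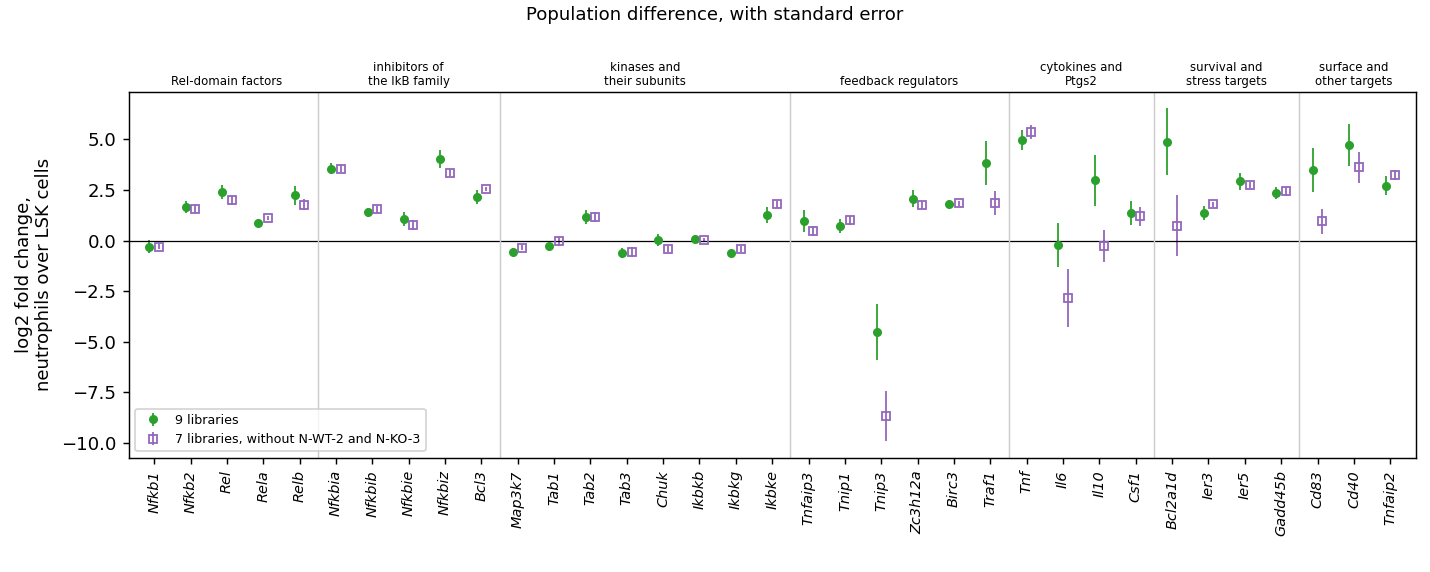
Log2 fold change of neutrophils over LSK cells for each tested member, with its standard error, from all 9 libraries (green) and from 7 libraries without N-WT-2 and N-KO-3 (purple). Most members lie above 0 in both, Tnip3 lies far below, and Cd83, Bcl2a1d and Traf1 come closer to 0 without those 2 libraries.

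An interaction term asked whether genotype acted differently on a member in neutrophils and in LSK cells. No member passed (0 of 35, beside 0.0297% of all genes, edgeR). At an unadjusted p under 0.05 there were 4 members higher and 3 lower, beside 707 and 1401 of all 13450 genes. In counts simulated for the interaction edgeR recovered 0% of 4-fold changes, so a member that does not pass is not shown to be alike in both populations. DESeq2 called 3 members higher (Nfkbiz, Birc3 and Nfkbia) and Cd83 lower, beside 3.34% of all genes higher and 4.70% lower. With N-WT-2 and N-KO-3 both left out, an alternative chosen after seeing the data, 5 members passed in edgeR, all higher, beside 5.43% of all genes higher and 7.21% lower under that setting: Nfkbiz (3.56, adjusted p = 0.0113), Birc3 (1.42, 0.0217), Chuk (1.42, 0.0261), Bcl3 (0.98, 0.0355) and Zc3h12a (1.92, 0.0386), each value being the log2 effect in neutrophils minus that in LSK cells. In each of these 5 the difference was in the direction of a higher knockout level in neutrophils relative to LSK cells.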

How the data were processed

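RNA-seq libraries of 2 sorted bone marrow populations were analysed, 9 in all. Per the labels' protocols, RNA came from RNeasy Micro columns and cDNA was made with SMART-Seq v4 Ultra Low Input reagents, an unstranded method. Per the submitters' processing notes, bcl2fastq, STAR, featureCounts and DESeq2 were used with the builds mm10 and GRCm38, while versions, annotation and strand setting were not given in the sources used here. Raw counts per gene, as deposited, entered each test. They also deposited normalized values (a signal per gene), which equalled the raw counts divided by 1 factor per library in all 37187 rows of the LSK table (tolerance 0.001); these served only as a check.

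LSK rows were named with GENCODE M21, which matched 35412 identifiers, and 176 more took the authors' symbols. Counts were tested with edgeR 4.0.16 in R 4.3.3 (TMM, expression filter by group, robust quasi-likelihood F test, Benjamini-Hochberg adjustment over all genes tested, threshold 0.05), within each population and, over 34508 genes joined by symbol, in 1 fit of all 9 libraries for neutrophils against LSK cells and for the interaction. The alternatives were RLE and upper-quartile scaling, DESeq2 1.42.0, voom with sample weights in limma 3.58.1, no filter, a shared spread, a replicate block, wild-type libraries only, and leaving out libraries. The procedure was tested on simulated data. On the scale of each population, 3 reads were worth 0.141 to 0.160 CPM in LSK cells and 0.0907 to 0.184 CPM in neutrophils, a floor that covers counting error only.

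The members and lists were chosen with earlier results of these data known. Named were all members, Spop, and from each further pathway list the 4 genes with the smallest p in LSK cells. Groups follow the titles. Whether replicates were separate animals is not in the labels, so the p-values reflect only library-to-library spread, possibly technical. Exon bases also covered from the opposite strand were 18.1% of Nfkb2, 16.4% of Nfkbib, 6.51% of Bcl3, 6.30% of Tnfaip2, 5.15% of Ikbkg and 2.48% of Ikbke, so reads of these genes are uncertain.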

Additional observations from a re-analysis of the deposited data

Results flagged for a closer look

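In 4 members the libraries of the genotypes separated completely in both populations and in opposite directions, lower in knockout LSK cells and higher in knockout neutrophils. In 4 other members (Bcl3, Chuk, Ikbkb and Cd83) they separated in both populations in the same direction. Over all genes tested, the genotypes did not overlap for 72.9% in LSK cells and 34.5% in neutrophils. The log2 effect in neutrophils minus that in LSK cells was 1.42 for Nfkbia (adjusted p = 0.236), 2.69 for Nfkbiz (adjusted p = 0.215), 1.12 for Birc3 (adjusted p = 0.235) and 1.62 for Ier3 (adjusted p = 0.305), by the edgeR quasi-likelihood test. None passed the adjusted threshold. Without the first wild-type neutrophil library, which leaves the second as the only wild-type one, Ier3 was at 2.77. Without the second instead, Ier3 was at 1.08. The neutrophil libraries differed in their B cell, dendritic cell and red cell markers, and the part of these cells in the differences was not tested.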

How the results depend on the processing

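Of the 352 member values recomputed under alternatives in LSK cells, 313 kept their direction and their side of the threshold; in neutrophils 421 of 427 did, and for neutrophils against LSK cells 485 of 556. In LSK cells 5 members were called higher, which became 3 with upper-quartile scaling, 0 with the spread shared over 9 libraries and 2 to 5 when 1 library was left out; the 8 called lower became 0 with the shared spread and 5 to 8 with 1 library left out. With the replicate block 5 were higher and 9 lower, beside 2881 and 2895 of all 13008 genes. In neutrophils the 0 called lower became 3 in DESeq2, 1 with the shared spread, 1 with the block and 0 to 2 with 1 library left out, and the 0 called higher became 1 with the block. Over all genes in neutrophils, DESeq2 called 252 higher and 680 lower, and the shared spread 111 and 399. The block called 86 and 248. Same-numbered libraries correlated at -0.04 in LSK cells and at 0.20 and -0.01 in neutrophils. These were correlations of deviations from group means, which mirror each other in a group of 2 libraries. In LSK cells both numbers therefore gave the same value, -0.04, which showed no shared variation of same-numbered libraries. A low correlation does not settle whether the numbers mark pairs. For neutrophils against LSK cells, the 22 higher became 14 with wild-type libraries only and 15 to 23 with 1 library left out; the 2 lower became 1 in voom, 1 without the filter, 1 with wild-type libraries only, 5 without both N-WT-2 and N-KO-3, and 0 to 3 with 1 library left out. Over all genes, 3440 were higher and 4072 lower in the main fit, and 3404 and 4314 in voom. Without the filter the counts were 3323 and 4129, and with wild-type libraries only 1863 and 1556. Without both N-WT-2 and N-KO-3 more of all genes were called lower too. Chuk went from 0.04 to -0.42 (edgeR) without both libraries, which leaves N-WT-1 as the only wild-type neutrophil library. The cause was not tested. In the interaction the 0 members called became 3 higher and 1 lower in DESeq2, beside 3.34% and 4.70% of all genes. With 2 libraries in a group, a left-out library leaves 1, which is assumed to vary like the others.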
